A study of Mus musculus with 42 samples.

Results

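Olfr1019 is 1 of the 1088 intact mouse odorant receptors (ORs) counted here, chosen by its name because earlier work linked this receptor to the immobility that the fox odor compound TMT evokes in mice. It was found in all 9 tables of the series, 8 for the odor comparisons and 1 for the dorsal and ventral libraries. The odor experiments sequenced RNA that came down with phosphorylated ribosomal protein S6 (pS6-IP-Seq) from the olfactory epithelium of C57BL/6 mice (C57BL/6J in the methods) aged 20 to 22 d after 1 h with ACT (acetophenone), with TMT (2,5-dihydro-2,4,5-trimethylthiazoline) or without odor. There were 3 mice per group, at starting concentrations of 0.01% and 0.1% (low set) or 1% and 100% (high set) by volume, and mice with the same replicate number in a set were same-sex littermates. The low set of an odorant was compared with 1 group of 3 no odor mice and the high set with another. By the paper's methods, total RNA of dorsal and of ventral olfactory epithelium was sequenced in 3 libraries each, from mice of the same strain and age without odor. No group carries a named allele.

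An olfactory sensory neuron (OSN) expresses 1 OR gene, and OSNs with the same OR lie within a broad zone of the epithelium. S6 becomes phosphorylated in OSNs that fire, so that an antibody to pS6 pulls down ribosomes and mRNA of active OSNs, and the mRNA of an activated OR becomes enriched over no odor mice. ORs are seven-transmembrane receptors that couple to a G protein and to adenylyl cyclase. The dorsal zone holds most class I ORs beside class II ORs, and TMT, a component of fox feces, evokes innate freezing and avoidance. In bulk libraries, fewer OSNs of a type and less mRNA per OSN cannot be told apart.

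Olfr1019 (ENSMUSG00000075208.6) lies on the minus strand at chr2:85839621-85845483 (GRCm38, GENCODE M21). Its longest transcript has 4 exons, and the whole coding sequence, 930 bases without the stop codon, lies in exon 4 at chr2:85840860-85841789. It encodes 310 residues. The closest measured OR by translated sequence was Olfr1134, with 58.0% identical residues, also on chromosome 2, while the median over the 1075 ORs aligned was 42.9%. The first 120 coding bases of both are shown because they tell how far apart the closest pair is for 50-base reads, and capitals in Olfr1134 mark the 55 bases that differ from Olfr1019 at the same position (chr2:85841670-85841789 and chr2:87656800-87656919 of GRCm38, both minus strand).
Olfr1019: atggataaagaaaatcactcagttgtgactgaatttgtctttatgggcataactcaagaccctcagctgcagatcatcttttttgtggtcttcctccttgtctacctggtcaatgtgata
Olfr1134: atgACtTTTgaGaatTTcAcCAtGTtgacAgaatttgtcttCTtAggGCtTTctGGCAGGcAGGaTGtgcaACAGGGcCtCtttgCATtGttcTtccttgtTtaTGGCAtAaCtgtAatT
Over the whole coding sequence the longest identical run of the pair was 15 bases. Of the 2982 stretches of 50 bases in the longest Olfr1019 transcript, 9 (0.302%) also occur in an annotated transcript of another gene, and none of those genes was an OR. Reads of Olfr1019 were therefore rarely shared with another OR in this annotation, which is not the authors' own OR annotation.

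The pS6-IP-Seq libraries held 37012 to 128805 counts on ORs and 28 to 113 counts on Olfr1019. The dorsal and ventral libraries held 155319 to 242123 counts on ORs. Levels are given as normalized counts, that is counts per 1000000 OR counts after TMM scaling, and an OR is called at an adjusted p below 0.05 in edgeR's quasi-likelihood test. The ACT libraries of litter 1 at 0.01% and at 1% stood apart from the other libraries of their groups. At 0.01% ACT Olfr506, an OR that the study labels as TMT responsive, had 13308 normalized counts, against 519 and 423 in litters 2 and 3. Olfr1019 had 768 normalized counts in that library, between the 457 and 906 of the other litters. At 1% ACT Olfr1395 and Olfr531, which the study also labels as TMT responsive, had 27321 and 16935 normalized counts in litter 1, against 2443 and 4041 in litter 2 and 4704 and 3942 in litter 3. Olfr1019 had 825 there, against 806 and 448. High counts of Olfr506 and Olfr531 were not limited to TMT. With 100% ACT Olfr506 had 2041 to 3594 normalized counts, against 770 to 1382 without odor. Olfr531 had 7634 to 11312 there, against 2745 to 3403, and neither was called. Whether the litter 1 libraries at 0.01% and 1% ACT were exposed to TMT or mixed up was not tested. The changes of Olfr1019 at 0.01% and 1% ACT and its mean ACT response are given with and without them or their litter. Its ACT trend, its test for any ACT concentration and the correlations over all libraries below include them. A single library's count of Olfr1019 was imprecise. For the lowest share, 430 per 1000000 OR counts at 1% ACT in litter 3, the 95% Wilson interval was 301 to 614, and such intervals cover counting error only.

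Olfr1019 was not called higher or lower at any concentration of TMT. At 0.01% TMT it had 597, 931 and 866 normalized counts in litters 1, 2 and 3, against 859, 471 and 864 in their no odor littermates. The groups overlapped, litter 1 went down and litter 2 went up. The log2 fold change was 0.14 ± 0.32 (SE; 95% interval -0.49 to 0.77; n = 3 mice per group; adjusted p = 1 in edgeR's quasi-likelihood test). Over all ORs, 0.368% were called higher at this concentration.

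At 0.1% TMT, Olfr1019 had 618, 1055 and 1002 normalized counts, against the same 3 no odor mice. Litter 1 was again below its no odor littermate and the others above, so that the groups overlapped. The log2 fold change was 0.30 ± 0.28 (SE; 95% interval -0.24 to 0.84; edgeR adjusted p = 0.963), where 1.38% of ORs were called higher (15 higher and 7 lower, or 15 and 2 with the size factors over all genes). Without litter 2, whose no odor mouse had the lowest of these levels, the change was -0.09, and at 0.01% TMT it was -0.25. The sign of the response to dilute TMT therefore rested on that litter.

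At 1% TMT, Olfr1019 had 882, 787 and 698 normalized counts, and its no odor littermates had 714, 796 and 681. Litter 2 was slightly below its no odor littermate. The log2 fold change was 0.07 ± 0.33 (SE; 95% interval -0.57 to 0.71; edgeR adjusted p = 1), while 4.69% of all ORs were called higher (51 higher and 2 lower, or 41 and 11 with total OR counts). With total OR counts in place of TMM the value was -0.15, so its sign depended on the scaling.

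The group means of Olfr1019 ran from 680 normalized counts in the no odor mice of the high ACT set to 1051 with undiluted TMT, and neighbors in this order differed by less than the larger of their SDs. Undiluted TMT gave 1051 ± 146 normalized counts (SD, n = 3), against 730 ± 59.5 in no odor littermates. The 3 litters had 887, 1099 and 1168 normalized counts with 100% TMT and 714, 796 and 681 without odor. All 3 litters were higher, by 0.31, 0.46 and 0.78 log2, and the groups did not overlap. The same was true of 15.6% of all ORs in this comparison. The log2 fold change was 0.47 ± 0.32 (SE; 95% interval -0.15 to 1.09), or 1.39-fold with an interval of 0.902 to 2.13, and it did not pass edgeR's quasi-likelihood test (adjusted p = 0.401), whereas 11.6% of ORs were called higher and 3.31% lower (126 and 36 ORs). That split depended on the scaling, with 105 higher and 101 lower for total OR counts, and 99 and 123 for the size factors over all genes. The scaling moved this value between 0.17 and 0.49. Relative to the median OR, Olfr1019 was 0.54 to 0.55 log2 higher under all 4 scalings, and 75.2% of ORs had a smaller change.

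ACT, an odorant with a sweet floral smell, served as the other odor. With ACT, Olfr1019 was not called either. At 0.01% ACT it had 768, 457 and 906 normalized counts, and at 0.1% ACT 931, 568 and 860. Their shared no odor littermates had 890, 673 and 641. The groups overlapped at both concentrations, and only litter 3 was above its no odor littermate at 0.01% ACT. The log2 fold changes were -0.09 ± 0.34 (SE; 95% interval -0.91 to 0.72) at 0.01% and 0.11 ± 0.28 (SE; 95% interval -0.49 to 0.70) at 0.1% ACT, both with an adjusted p of 1 in edgeR. Without litter 1, whose 0.01% library stood apart, edgeR's value at 0.01% ACT was -0.04 log2.

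At 1% ACT, Olfr1019 had 825, 806 and 448 normalized counts, and at 100% ACT 702, 808 and 792, against 674, 643 and 722 in the no odor littermates of both. At 100% ACT every litter was higher than its no odor littermate, by 0.06, 0.33 and 0.13 log2, although the groups overlapped. The log2 fold changes were -0.01 ± 0.33 (SE; 95% interval -0.66 to 0.63; edgeR adjusted p = 1) at 1% and 0.15 ± 0.37 (SE; 95% interval -0.65 to 0.95; edgeR adjusted p = 0.922) at 100% ACT. Without litter 1, whose 1% library stood apart, the value at 1% ACT was -0.16 log2. ORs called higher made up 0.643% at 0.1% ACT and 1.38% at 1% ACT (15 higher and 3 lower, or 12 and 5 with total OR counts). None was called by edgeR's quasi-likelihood test at 0.01% or 100% ACT, where 28 and 155 ORs had an unadjusted p below 0.05. The likelihood ratio test called 3 and 43 ORs there and DESeq2 called 2 and 23.

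**Figure D1:**
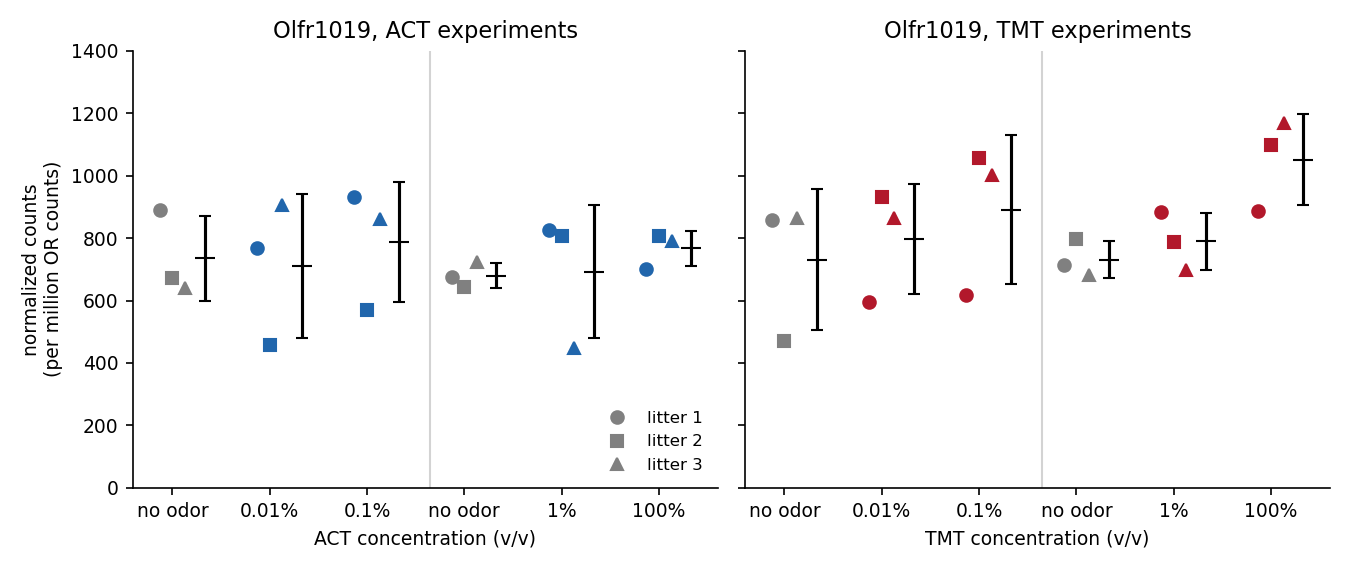
Normalized counts of Olfr1019 per 1000000 OR counts (linear axis) in each of the 36 pS6-IP-Seq libraries by odor concentration; symbols mark litters 1 to 3, grey is no odor, and black bars are the mean ± SD of each group. The vertical line parts the 2 sets of litters of each odorant, and only the 100% TMT libraries lie wholly above their no odor littermates, at 887 to 1168 against 681 to 796.

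In one fit of all 36 libraries with 12 litters as blocks, the mean response of Olfr1019 to the 4 TMT concentrations was 0.25 ± 0.18 log2 (SE; 95% interval -0.13 to 0.63; edgeR adjusted p = 0.738). In this contrast 2.48% of ORs were called higher (27 higher and 1 lower, or 30 and 6 with total OR counts). The value was 0.42 without the mice numbered 1, 0.060 without those numbered 2 and 0.13 with total OR counts. The mean response to ACT was 0.04 ± 0.18 log2 (SE; 95% interval -0.34 to 0.41; edgeR adjusted p = 0.999), and 0.551% of ORs were called higher (6 higher and 1 lower, or 6 and 6 with total OR counts). The difference between both responses was 0.21 ± 0.26 log2 (SE; 95% interval -0.32 to 0.74; edgeR adjusted p = 1). It did not pass the test, which called only 0.276% of ORs higher (3 higher and 3 lower). It was 0.38 without the mice numbered 1, 0.014 without those numbered 2 and 0.099 with the size factors over all genes. Without the 0.01% and 1% ACT libraries of litter 1, the mean ACT response was -0.0078 log2 and the difference 0.23 log2, and neither passed the test. The interval of the mean TMT response ended at 1.54-fold and that of ACT at 1.33-fold in the fit of all libraries.

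The response of Olfr1019 did not show a called change with concentration. Per 10-fold rise in TMT concentration it changed by 0.09 ± 0.11 log2 (SE; edgeR adjusted p = 0.763; 1.19% of ORs called higher, 13 higher and 0 lower, or 12 and 3 with total OR counts), and per 10-fold rise in ACT by 0.06 ± 0.11 log2 (SE; edgeR adjusted p = 0.989; 0 ORs called higher and 1 lower). From 1% to 100% TMT, in the same litters, the difference was 0.42 ± 0.30 log2 (SE; 95% interval -0.19 to 1.04; edgeR adjusted p = 0.572; 2.21% of ORs called higher). With the size factors over all genes this difference was 0.038 log2, and the calls were 12 higher and 22 lower, against 24 and 5 with TMM. From 0.01% to 0.1% TMT it was 0.15 ± 0.29 log2 (SE; 95% interval -0.44 to 0.75; edgeR adjusted p = 1; 0 ORs called higher and 0 lower). The test for a response at any TMT concentration gave an adjusted p of 0.837 in edgeR, and that for any ACT concentration 0.991. It called 5.97% and 1.93% of ORs.

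The 7 ORs that the study labels as TMT responsive give the scale of a TMT response in these libraries. They were chosen by the study on these samples, so that their rise is no independent evidence. They are not particular to TMT. The study also labels Olfr376 as ACT responsive, and 2 of the 7 were called higher at 1% ACT, where 1.38% of all ORs were. That comparison includes the litter 1 library that stood apart. Of the 7, 3 were called higher at 0.01% TMT, 5 at 0.1%, 6 at 1% and all 7 at 100% TMT. At 100% TMT 6 of them rose 4.03-fold to 8.13-fold, and Olfr837 had 1, 0 and 0 counts without odor and 8, 14 and 8 counts with TMT. The 95% interval of Olfr1019 lay wholly below those of 6 of the 7 at 100% TMT and of the 6 called at 1% TMT. Among them Olfr531 went from 3311, 4885 and 3258 normalized counts without odor to 17783, 23501 and 21532 with 100% TMT. Olfr1019 stood below every member in log2 fold change at 1% and at 100% TMT, and below 5 of the 7 at 0.01% and at 0.1% TMT. Its interval lay below those of the 3 called at 0.01% TMT, but below those of only 3 of the 5 called at 0.1% TMT.

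**Figure D2:**
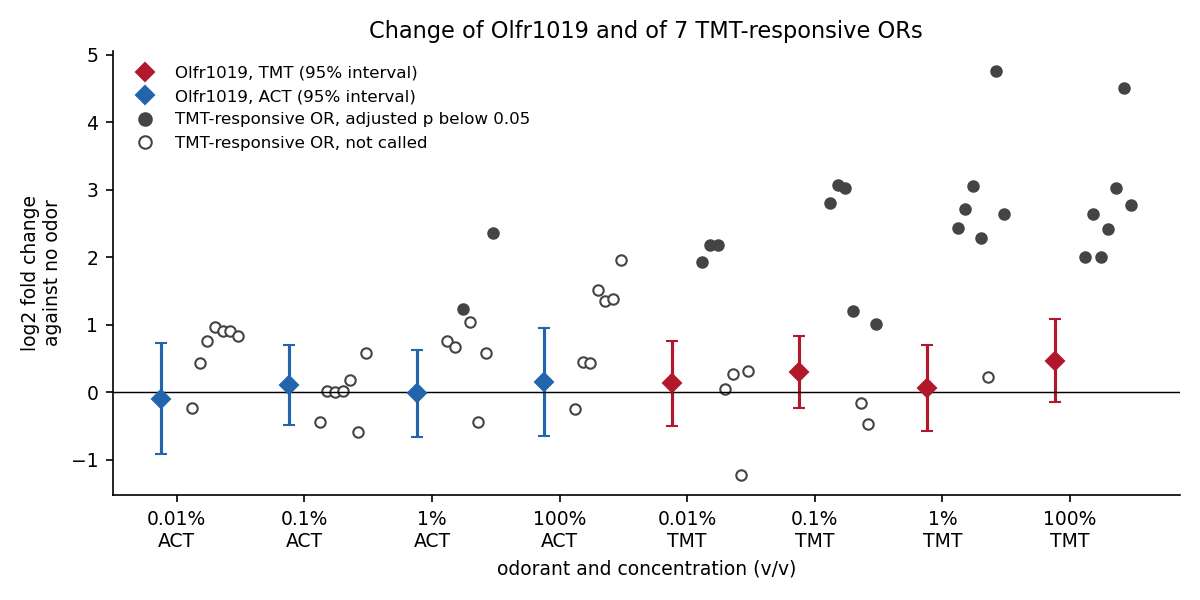
Log2 fold change against no odor littermates (vertical axis) by odorant and concentration; diamonds are Olfr1019 with 95% intervals, red for TMT and blue for ACT, and circles are the 7 TMT-responsive ORs, filled where called. All 8 intervals of Olfr1019 cross 0, while 6 of the 7 ORs rose 4.03-fold to 8.13-fold at 100% TMT. The highest circle there is Olfr837, whose no odor libraries held 1, 0 and 0 counts.

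ORs with counts like those of Olfr1019 give the sizes of rise that were called. Among the 100 ORs nearest to it in mean normalized count at 100% TMT, 17 were called higher and 7 lower. Of all ORs, 11.6% were called higher there and 3.31% lower. The smallest called rise among them was that of Olfr112, 0.84 ± 0.31 log2 (SE; edgeR adjusted p = 0.0472), above the 0.47 of Olfr1019. At 1% TMT, 3 of the 100 nearest ORs were called higher, against 4.69% of all ORs, and the smallest rise was 1.53 log2, in Olfr45. At each of the lower concentrations only 1 of the 100 was called higher, so its rise is the value of a single OR. It was Olfr1353 at 0.1% TMT, with 1.13 log2, where 1.38% of all ORs were called higher. At 0.01% TMT it was Olfr186, with 1.23 log2, where 0.368% were.

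The 5 measured ORs most similar to Olfr1019 in protein sequence were Olfr1134, Olfr1444, Olfr1111, Olfr1138 and Olfr1133, with 57.2% to 58.0% identical residues. Of these 5, 2 were called higher at 100% TMT, where 11.6% of all ORs were. None was called higher at a lower TMT concentration, where 0.368% to 4.69% of all ORs were. None was at any ACT concentration either, where 0% to 1.38% of all ORs were. Olfr1133 rose by 2.61 ± 0.39 log2 (SE; edgeR adjusted p = 4.25e-10), from 121, 301 and 243 normalized counts without odor to 1155, 1328 and 1606. Olfr1134, the receptor whose first bases are printed above, rose by 1.53 ± 0.40 log2 (SE; edgeR adjusted p = 0.001375). The other 3 had -0.24 to 1.28 log2. At 0.01% ACT Olfr1133, Olfr1134 and Olfr1444 had 1587, 1730 and 1782 normalized counts in their highest library, against group medians of 227, 240 and 196. Olfr1111 and Olfr1138 had no such library, with 325 and 85.2 at most. Whether Olfr1019 differed from its relatives was not tested.

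Olfr1019 was higher in the dorsal than in the ventral epithelium. It had 3778, 2537 and 4481 normalized counts in the dorsal libraries 1, 2 and 3, and 223, 254 and 257 in the ventral ones. The lowest dorsal library was above the highest ventral library, as in 39.4% of all ORs. The log2 fold change was 3.84 ± 0.54 (SE; edgeR adjusted p = 0.000154), or 14.3-fold with a 95% interval of 6.42 to 32.0. Without scaling beyond the total, Olfr1019 held 3089, 2468 and 3035 per 1000000 OR counts in the dorsal and 263, 313 and 328 in the ventral libraries. Of all ORs, 37.4% were called dorsal and 37.2% ventral, so being called dorsal was common. Among the 407 ORs called dorsal, Olfr1019 was at rank 187 by log2 fold change, near their median of 3.71. The smallest called dorsal excess among the 100 ORs nearest in mean count was 1.57 log2, in Olfr1122.

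The labels of both zones were checked with ORs of known place. All 6 class I ORs of the dorsal list (Olfr544, Olfr545, Olfr552, Olfr558, Olfr690 and Olfr691) were called higher in the dorsal libraries, by 7.98-fold to 21.7-fold. The 3 ventral ORs of the MOR28 cluster (Olfr1507, Olfr1508 and Olfr1509) were called lower, at -5.27 to -4.02 log2. The dorsal libraries were not equally free of ventral ORs, and which library held most of them differed by OR. The MOR28 cluster was highest in library 3, with 30.3, 168 and 1158 normalized counts of Olfr1507 in libraries 1, 2 and 3. Olfr531 and Olfr1297, also called ventral, were highest in library 2 instead, at 258, 1266 and 169 and at 803, 1440 and 338. Olfr1019 was lowest in library 2 and highest in library 3, and the part of such carry-over in its level was not tested. Without each replicate number in turn, its log2 fold change stayed between 3.70 and 4.25.

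**Figure D3:**
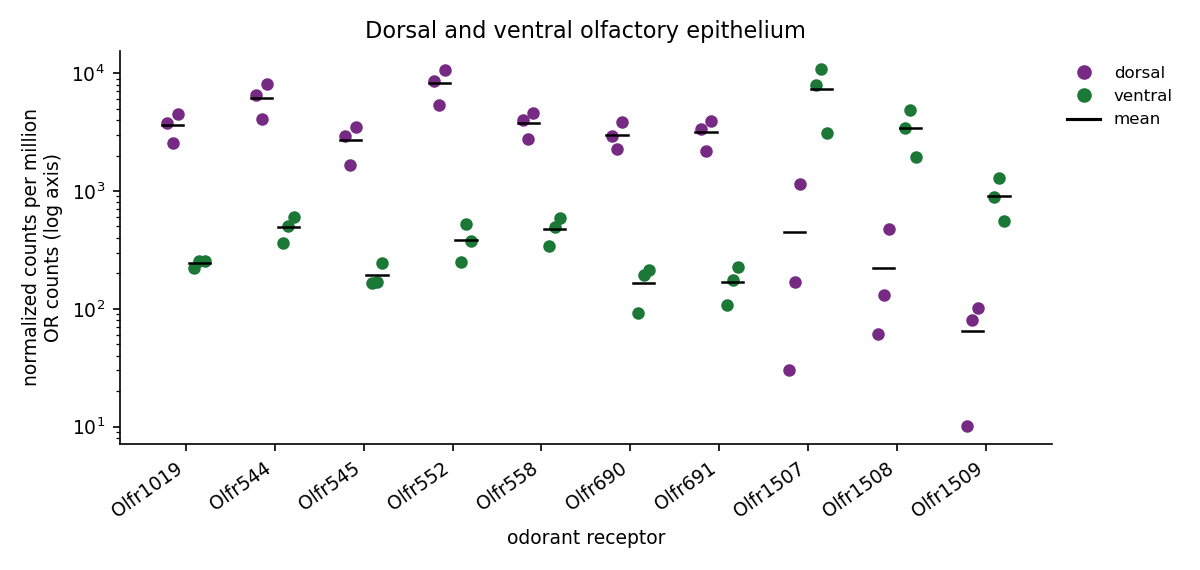
Normalized counts per 1000000 OR counts (log axis) of Olfr1019, 6 class I ORs and 3 ORs of the MOR28 cluster; dots are the dorsal (purple) and ventral (green) libraries and lines are means. Olfr1019 lies with the class I ORs, at 2537 to 4481 in dorsal and 223 to 257 in ventral libraries, while the MOR28 cluster shows the opposite order.

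On chromosome 2, Olfr1019 sat at a change in zone between its neighbors. The 5 measured ORs on the side of higher coordinates, Olfr1020, Olfr1022, Olfr1023, Olfr1024 and Olfr1026, were all called higher in the dorsal libraries, at 3.62 to 4.65 log2. Over all ORs, 37.4% were called dorsal and 37.2% ventral. Of the 5 on the side of lower coordinates, Olfr1013, Olfr1014, Olfr1015, Olfr1016 and Olfr1018, none was called higher. They ranged from -1.66 to 0.25 log2. Olfr1018, which ends 15.4 kb from Olfr1019, was called lower in the dorsal libraries, with 798, 2020 and 366 normalized counts against 2754, 2555 and 2661 in the ventral libraries (-1.66 ± 0.59 log2 (SE); edgeR adjusted p = 0.0323). Olfr1020, which starts 1.55 kb away on the opposite strand, had 3384, 2350 and 4102 against 185, 305 and 307 (3.62 ± 0.55 log2 (SE); edgeR adjusted p = 0.000205). The counts of 0 and 5 dorsal calls on both sides held under all 4 scalings, while the call of Olfr1018 was lost with DESeq2 size factors.

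These neighbors were not close relatives of Olfr1019. Their proteins had 48.3% to 55.8% identical residues, and Olfr1026, the closest, ranked 13 among the measured ORs. With 100% TMT, 1 of the 10 was called higher, where 11.6% of all ORs were. This was Olfr1023, which rose by 1.74 ± 0.49 log2 (SE; edgeR adjusted p = 0.00426). Olfr1026 was the 1 neighbor called with ACT, at 0.1%, where 0.643% of all ORs were called higher, and it rose by 1.86 ± 0.34 log2 (SE; edgeR adjusted p = 0.0127).

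**Figure D4:**
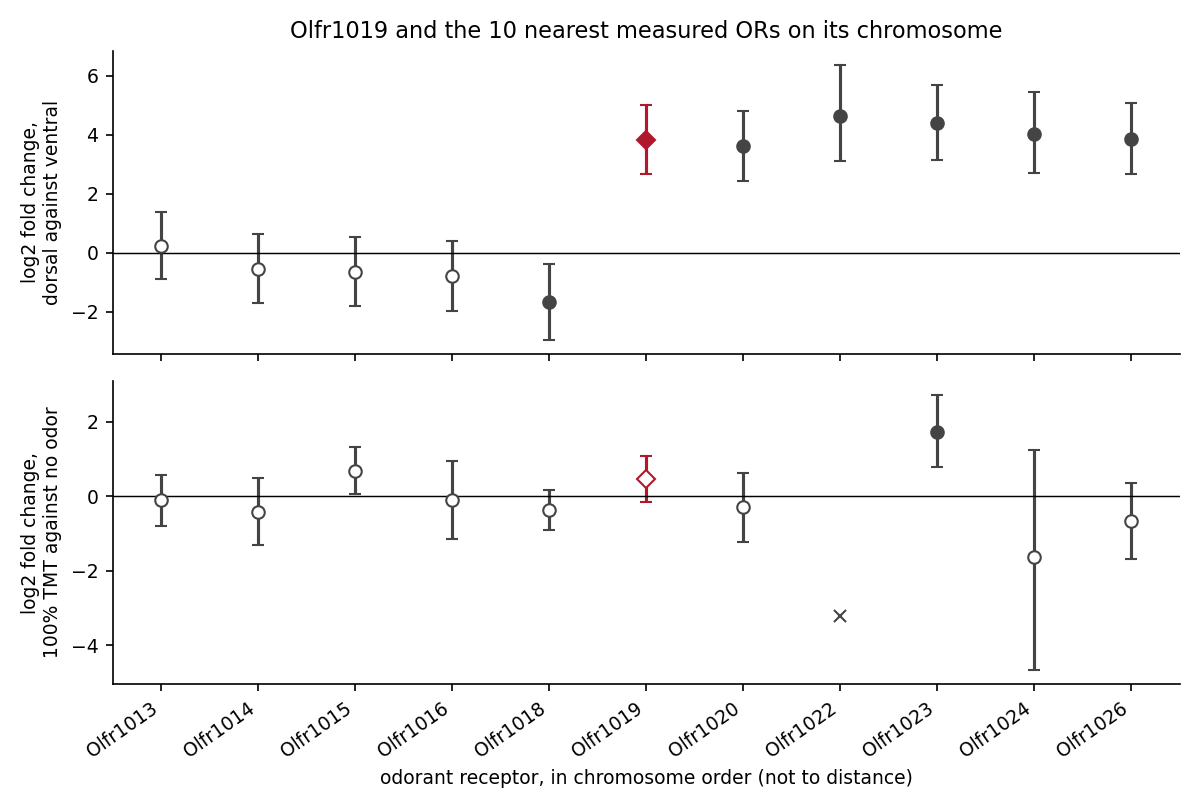
Log2 fold change of Olfr1019 (red diamond) and of 5 measured ORs on each side of it, in chromosome order; the upper panel compares dorsal with ventral libraries and the lower panel 100% TMT with no odor. Bars are 95% intervals, filled symbols were called, and the cross is Olfr1022, which had no count with 100% TMT and gets no interval. Olfr1019 and the 5 ORs to its right lie at 3.62 to 4.65 log2 in the upper panel, and the 5 to its left at -1.66 to 0.25.

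Of the 7 TMT-responsive ORs, 2 were called dorsal and 3 ventral, where 37.4% and 37.2% of all ORs were. Olfr506 and Olfr376 were called higher in the dorsal libraries, at 4.07 and 3.47 log2, close to Olfr1019. Olfr1297, Olfr165 and Olfr531 were called lower there, and Olfr1395 and Olfr837 were not called.

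Over the 36 pS6-IP-Seq libraries, the ORs whose levels followed Olfr1019 most closely were Olfr912 (Pearson r = 0.61), Olfr1048 (r = 0.50) and Olfr531 (r = 0.46), out of 728 ORs with a mean of at least 20 counts. Of these ORs, 5% had an r above 0.34. The libraries share litters, odor groups and depth, so these values are a description. All 3 ORs were called higher at 100% TMT, where 11.6% of all ORs were, Olfr912 by 1.18 log2 and Olfr1048 by 1.65 log2. They were picked on these same libraries, in which Olfr1019 was highest with 100% TMT. The choice thus favored ORs that rise there, and these calls are no independent evidence. With ranks (Spearman), 2 of the 3 stayed among the closest 3, while Olfr1048 fell to rank 25 with a correlation of 0.34. At 1% ACT Olfr1048 was called lower, at -1.79 log2, as 1 of 3 ORs called lower there, while Olfr1019 had -0.01 log2. Olfr1048 was dorsal, while Olfr912 and Olfr531 were called higher in the ventral libraries.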

How the data were processed

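The authors aligned 50-base reads with STAR to GRCm38 and an OR annotation with UTRs, and RSEM gave expected counts, deposited as whole numbers for 1088 intact ORs (1087 for the zones). The deposited mean signal per group (baseMean) served to recover the authors' size factors over all genes. The same tables hold the authors' fold changes, log2 CPM and p-values from edgeR, which were not used. Genes other than ORs were not analysed here. For the 0.1% TMT library of litter 1, a label names a 1% TMT file, and its odor label is followed. The extraction label of the dorsal and ventral libraries repeats the pS6-IP text, and the paper's methods, which give total RNA, are followed.

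Counts were tested with edgeR 4.0.16 (limma 3.58.1, R 4.3.3; glmQLFit, robust, and glmQLFTest, two-sided) with TMM over ORs, no filter on low counts and Benjamini-Hochberg adjustment over all ORs. The replicate number was a block, since the paper describes littermates. Libraries of the same number had median correlations of 0.0578 to 0.156 over ORs in the 4 odor sets, against -0.0709 to -0.0347 for different numbers. For the zones these were -0.336 and 0.199, which goes against a pairing. The quasi-likelihood test was also run on simulated data for 0.1% TMT, 100% TMT and the zones, with a common dispersion for all ORs. The outcome is not given here and is not used as support. Intervals are Wald intervals with the quasi-likelihood dispersion and edgeR's moderated degrees of freedom. For Olfr1019 these were infinite at 0.1%, 1% and 100% TMT and at 1% ACT, so that a normal quantile was used. A single comparison leaves 2 residual degrees of freedom, with which these intervals would be wider. Changes per litter used a pseudocount of 1. DESeq2 1.42.0 was an alternative. Protein identity came from global alignment (BLOSUM62, Biopython 1.88) of translated GENCODE M21 coding sequences. The paper gives 3 mice for the zone libraries.

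The members and lists were chosen with earlier results of these data known. Named ORs were Olfr1019, the 7 TMT-responsive ORs, 5 relatives, 5 neighbors on each side, the 3 most correlated ORs and the smallest called rise among the 100 ORs nearest in count. Other ORs named are those that check the zones. The pairs of no odor and odor groups follow the titles in the labels.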

Additional observations from a re-analysis of the deposited data

How the results depend on the processing

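Over 189 alternatives, the dorsal call of Olfr1019 held in all 10 run, and no odor result became called. In 14 the sign of a small odor change turned, and the cause was not tested. At 1% ACT the value was 0.020 without the replicate block, 0.078 with size factors over all genes and 0.0053 in the joint fit. With total OR counts it was -0.15 at 1% TMT, -0.11 for the mean ACT response and -0.0021 for the TMT trend. Leaving out a litter gave -0.38 to 0.11 at 0.01% ACT (the sign turned without litter 2), -0.085 to 0.26 at 0.1% ACT (litter 3), -0.22 to 0.29 at 1% ACT (litter 3), -0.25 to 0.46 at 0.01% TMT (litter 2), -0.092 to 0.65 at 0.1% TMT (litter 2), -0.015 to 0.17 at 1% TMT (litter 1), -0.029 to 0.14 for the ACT trend (litter 2) and, with the alternative that leaves out both ACT libraries of litter 1 at 0.01% and 1% and was added after seeing the data, -0.0078 to 0.046 for the mean ACT response (the sign turned without those libraries). The TMT trend ran from 0.018 (without number 1) to 0.22 (without number 2), and was 0.017 with size factors over all genes, with which the difference from 0.01% to 0.1% TMT was 0.35. From 1% to 100% TMT the difference ran from 0.25 to 0.62. Without a replicate block the dorsal value was 3.87, and leaving out the block changed no call of Olfr1019. The number of ORs called in all moved more. Over the alternatives it ran from 0 to 4 at 0.01% ACT (0 in the main test), 0 to 12 at 0.1% ACT (7), 0 to 21 at 1% ACT (18), 0 to 87 at 100% ACT (0), 2 to 5 at 0.01% TMT (5), 5 to 25 at 0.1% TMT (22), 34 to 55 at 1% TMT (53) and 98 to 222 at 100% TMT (162). In the joint fit it ran from 7 to 59 for the mean TMT response (28), 0 to 21 for ACT (7), 0 to 71 for the TMT trend (13), 1 to 72 from 1% to 100% TMT (29), 6 to 117 for any TMT (65) and 0 to 94 for any ACT concentration (21). Without these 2 ACT libraries it was 59, 21, 71, 72, 117 and 84, and it was 23 for TMT minus ACT (6 with all libraries), 20 for the ACT trend (1) and 4 from 0.01% to 0.1% TMT (0). The 28 to 113 counts of Olfr1019 per pS6-IP-Seq library limit the precision of its fold changes.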
